A study of Mus musculus with 2 samples.

Results

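Interferon-stimulated genes were examined in mouse embryonic stem (ES) cells with and without CTCFL, a testis-expressed relative of the DNA-binding protein CTCF. The members were 35 listed genes that interferon induces, that sense viral RNA or that relay the interferon signal, and a gene was taken as measured where a probe set carried that symbol alone. This gave 32 measured members among 19938 named genes. Ifi44 had no such probe set, and Isg15 and Gbp2 shared theirs with another symbol, so these 3 genes have no value here.

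All cells were ES cells with the reverse tetracycline transactivator at ROSA26 and a TRE-driven CTCFL-V5-GFP transgene with a neomycin marker, grown on gelatin in medium with leukemia inhibitory factor. The induced array held RNA of cells that were kept in doxycycline for 3 days and then sorted for green fluorescent protein (GFP). The non-induced array held RNA of cells of this kind without doxycycline and without the sort, and it is not stated whether the arrays came from the same clone. There was 1 array per group, so no value has an error, no test was made, and CTCFL, doxycycline and the sort cannot be told apart. Values are log2 signals of robust multi-array averaging (RMA), differences are induced minus non-induced, and levels of different genes are not compared because probes differ in response.

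Interferons are secreted proteins that bind receptors on the cell surface, activate JAK kinases and bring STAT and IRF transcription factors to target promoters. Their target genes encode RNA sensors, enzymes that block translation or degrade RNA, and membrane proteins that stop virus entry or release. Pluripotent cells are known to make little interferon on exposure to viral RNA and to respond weakly to it, while some of these genes, such as the Ifitm genes, are expressed in them without it.

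The labels were checked first. Ctcfl was at 9.44 in induced and 5.99 in non-induced cells, and the 10 ES cell markers lay between 8.44 and 13.16 in both, with differences of -0.46 to 0.24. Of all genes 51.4% had a difference above 0 (median 0.01). Of 12 fibroblast and mesenchyme markers 10 were above 0 (median 0.41, from -0.28 to 0.85). Of 8 endoderm markers 5 were above 0 (median 0.25, from -0.85 for Foxa2 to 0.42). Hematopoietic and macrophage markers were above 0 in 8 of 10 cases (median 0.31). Their median level was 5.14 in induced and 4.95 in non-induced cells, and 8 of the 10 did not reach the floor, which is the median over all gene values of both arrays (6.36). Ptprc, the pan-leukocyte antigen, was at 4.94 in induced and 4.61 in non-induced cells, and Cd68 and Laptm5 were the 2 markers that reached the floor. The part of these marker differences in the values below was not tested, and cell number and RNA per cell cannot be told apart in bulk RNA.

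Promoters of the members were read next, since transcription factors of the pathway are known to bind short DNA elements. The interferon-stimulated response element (ISRE), bound by the complex of STAT and IRF9 and by other IRF proteins, was searched as its core GAAANNGAAA on both strands, from 250 bases before to 50 after each RefSeq start in GRCm38.p6. Of the 35 members 28 had a promoter there, and 14 of these 28 (50%) held the core, against 3.99% of all genes with a promoter there and 3.44% of all 32851 promoters. The gamma-activated site, bound by STAT dimers, was searched as TTCNNNGAA, which reads the same on both strands. It was found in 8 of 28 members (28.6%), against 9.55% of all genes and 8.30% of all promoters. Matches of both kinds may overlap, and a match is only a run of letters.

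The stretches below, in lower case with each core in capitals, show the ISRE cores of members that differed in opposite directions between the arrays. Positions count from the start site. A core on the opposite strand reads as its reverse complement.
Oas1a (chr5:120907526-120907555, minus strand, -30 to -1): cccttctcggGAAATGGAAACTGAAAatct
Bst2 (chr8:71537577-71537612, minus strand, -140 to -105): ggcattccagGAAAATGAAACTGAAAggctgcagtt
Ifit1 (chr19:34640775-34640823, plus strand, -114 to -66): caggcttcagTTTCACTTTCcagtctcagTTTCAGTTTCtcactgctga
Ifit3 (chr19:34583363-34583422, plus strand, -166 to -107): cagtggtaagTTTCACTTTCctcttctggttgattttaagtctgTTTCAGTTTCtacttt
Ddx58 (chr4:40239804-40239833, minus strand, -8 to 22): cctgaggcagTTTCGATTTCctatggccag
Eif2ak2 (chr17:78882535-78882564, minus strand, 9 to 38): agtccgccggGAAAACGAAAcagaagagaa

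Oas1a and Bst2 each hold overlapping cores in 1 orientation, and Ifit1 and Ifit3 each hold a pair in the other. The letters GAAACTGAAA recurred in 5 members, Bst2, Ifit1, Ifit3, Oas1a and Stat2, and in 0.231% of all promoters. In Ddx58 and Eif2ak2, as in Ifih1 and Ifitm3, a core lies after the start site, and in the other 8 measured members with a core all matches lie before it.

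The differences of the members spread to both sides of 0. Of the 32, 17 were above 0 (53.1%), against 51.4% of all genes, and 15 were below. Their median was 0.03, against 0.01 for all genes, and 18 lay within 0.25 of 0, as did 49.5% of all genes. At a difference of log2 1 or more where the higher value reached the floor, 1 member was higher and 0 lower, against 0.256% and 0.958% of all genes. That member, Oasl2, reached the floor (6.36) in the induced array alone, at 6.44 induced and 5.36 non-induced. At log2 0.58 without a floor 1 was higher and 2 were lower (3.12% and 6.25%), against 6.82% and 7.4% of all genes. Of the 32 members 15 reached the floor in at least 1 array, with a median of 0.01 (-0.03 for all such genes), and 17 did not, with a median of 0.05 (0.06 for all such genes). The share above 0 lay near that of all genes, and the shares past either size rest on the 3 genes Oasl2, Ifit3 and Mx1.

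**Figure D1:**
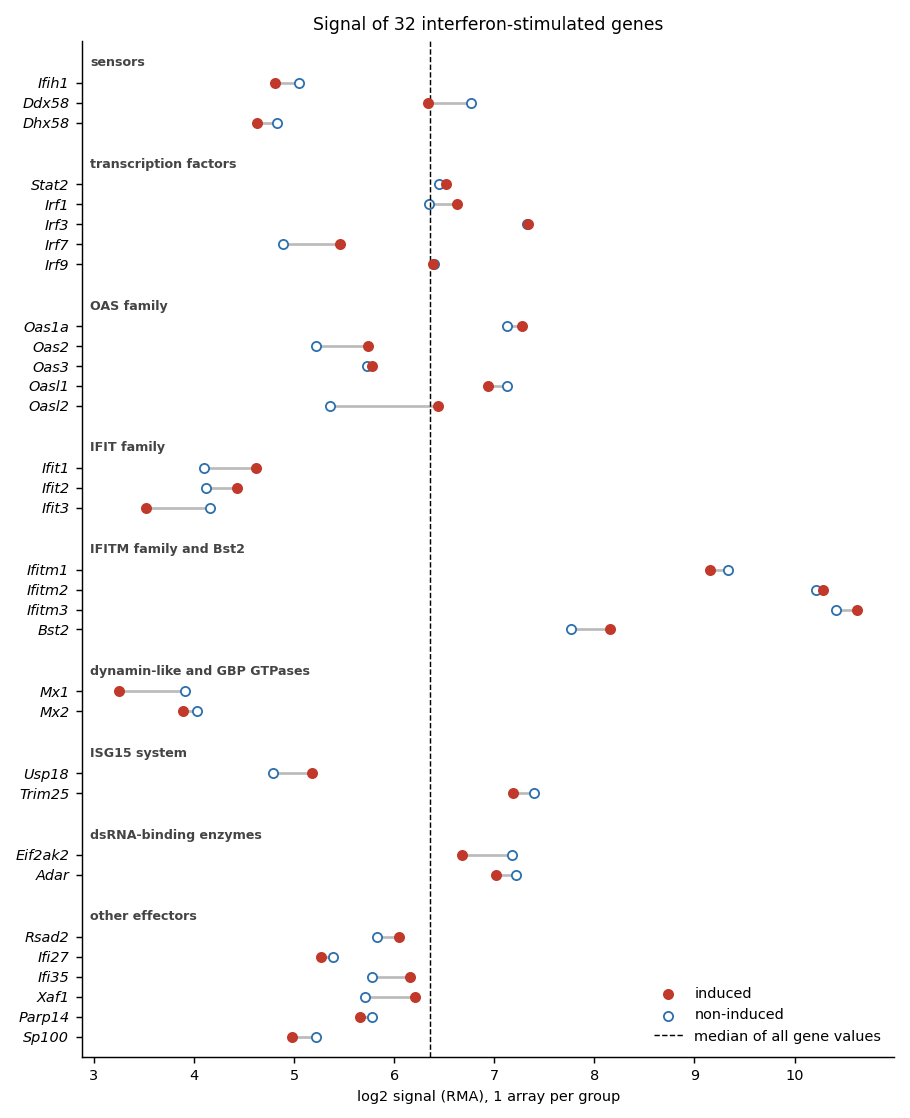
Log2 signal of the 32 measured members, ordered by role, with the induced and non-induced values of a gene as joined points; the dashed line marks the floor (6.36). Oasl2 has the widest gap (6.44 induced, 5.36 non-induced), and the Ifitm genes and Bst2 lie right of the line in both arrays.

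The 3 sensors among the members, the RIG-I-like helicases, had differences below 0, and none was past log2 0.58. Ddx58, which encodes RIG-I, the sensor of short double-stranded RNA and triphosphate ends, was at 6.34 in induced and 6.77 in non-induced cells (-0.43). Ifih1, which encodes MDA5, the sensor of long double-stranded RNA, was at 4.81 induced and 5.05 non-induced (-0.24), and Dhx58, which encodes the regulatory helicase LGP2, at 4.63 induced and 4.83 non-induced (-0.21). Of the 3 sensors only Ddx58 reached the floor, and it did so in the non-induced array alone. Of the other members whose proteins bind double-stranded RNA, the enzymes Eif2ak2 and Adar had the same sign, while the synthetases Oas1a, Oas2 and Oas3 had differences above 0 (0.15, 0.51 and 0.05, the last turning to -0.05 after centring). Eif2ak2, which encodes PKR, the kinase that halts translation through eIF2, was at 6.68 in induced and 7.18 in non-induced cells (-0.50, or 1.41-fold lower). Adar, which encodes the enzyme that edits adenosine to inosine, was at 7.02 induced and 7.22 non-induced (-0.20). The 3 sensors, Eif2ak2 and Adar were below 0 in each of the 6 settings tried. These were the deposited scaling, centring of both arrays, lowess on mean level and a second quantile normalization. The other settings were a constant of 32 added to the linear signals, and averaging of probe sets where a gene had several. Each of these 5 genes has 1 probe set, so averaging could not change its value, and centring lowers every difference by 0.10. The share of all genes that keep their sign in each setting was not counted. Each of the 5 genes also lay within the range that holds 95% of the 500 genes closest in mean level. This range was -0.89 to 0.67 for Eif2ak2 and -0.66 to 0.79 for Ddx58.

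Among the 5 transcription factors of the pathway Irf7 had the widest difference. Irf7, known as the factor that amplifies interferon production, was at 5.46 in induced and 4.89 in non-induced cells (0.57), below the floor in both. With the constant added, which damps differences of dim genes, its difference was 0.30. Irf1, the factor of the interferon gamma response, was at 6.63 induced and 6.35 non-induced (0.28), but its other probe set was at 6.07 induced and 6.14 non-induced (-0.07). The components of the ISRE-binding complex were nearly level. Stat2 was at 6.52 in induced and 6.44 in non-induced cells (0.07), and Irf9, the DNA-binding subunit, at 6.38 induced and 6.40 non-induced (-0.01). Irf3, which is present before infection and is activated by phosphorylation, was at 7.34 induced and 7.33 non-induced (0.01). Centring turned the sign of both Stat2 (-0.03) and Irf3 (-0.09).

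The OAS family includes synthetases of 2′-5′ oligoadenylates, which activate RNase L, and its Oasl branch carries ubiquitin-like domains. Oasl2 had the widest difference of the 32 members. Its level was 6.44 in induced and 5.36 in non-induced cells (1.08, or 2.11-fold higher), and its percentile rank within the array was 51.1 in the induced and 28.7 in the non-induced array. The 95% range of the 500 genes nearest to it in mean level was -0.57 to 0.76, and Oasl2 was the 1 member of 32 outside its range. A 95% range leaves some genes outside it by construction, and the share of all genes outside theirs was not counted. Oasl2 stayed above 0.58 in each setting, from 0.70 to 1.08. It was past 1 with the deposited scaling, but not after centring, lowess, quantile normalization or with the constant added. It has 1 probe set, so averaging of probe sets could not change its value. Its paralog Oasl1 had the opposite sign, at 6.94 induced and 7.13 non-induced (-0.19).

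The promoter of Oasl2, the member with the widest difference, held neither element in the window searched. Its last 150 bases before the start (chr5:114896784-114896933, plus strand) are given for comparison with the stretches above.
Oasl2: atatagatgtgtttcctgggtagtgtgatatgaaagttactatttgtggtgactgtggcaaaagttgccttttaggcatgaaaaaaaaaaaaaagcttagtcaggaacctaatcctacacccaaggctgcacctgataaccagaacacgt

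The Oas1, Oas2 and Oas3 genes, also on chromosome 5, differed in sign and size. Oas2 was at 5.74 in induced and 5.22 in non-induced cells (0.51), below the floor in both. Oas1a, which encodes a catalytically active synthetase, was at 7.28 induced and 7.13 non-induced (0.15), and Oas3, which encodes the long synthetase with several repeated domains, at 5.78 induced and 5.73 non-induced (0.05, and -0.05 after centring). Of the paralogs of Oas1a outside the members, all below the floor, Oas1e was at 0.56 and Oas1b at -0.56, and Oas1c, Oas1d, Oas1f and Oas1h lay between -0.34 and 0.02. The Oas1 genes are close copies, so their probe sets may read more than 1 gene.

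**Figure D2:**
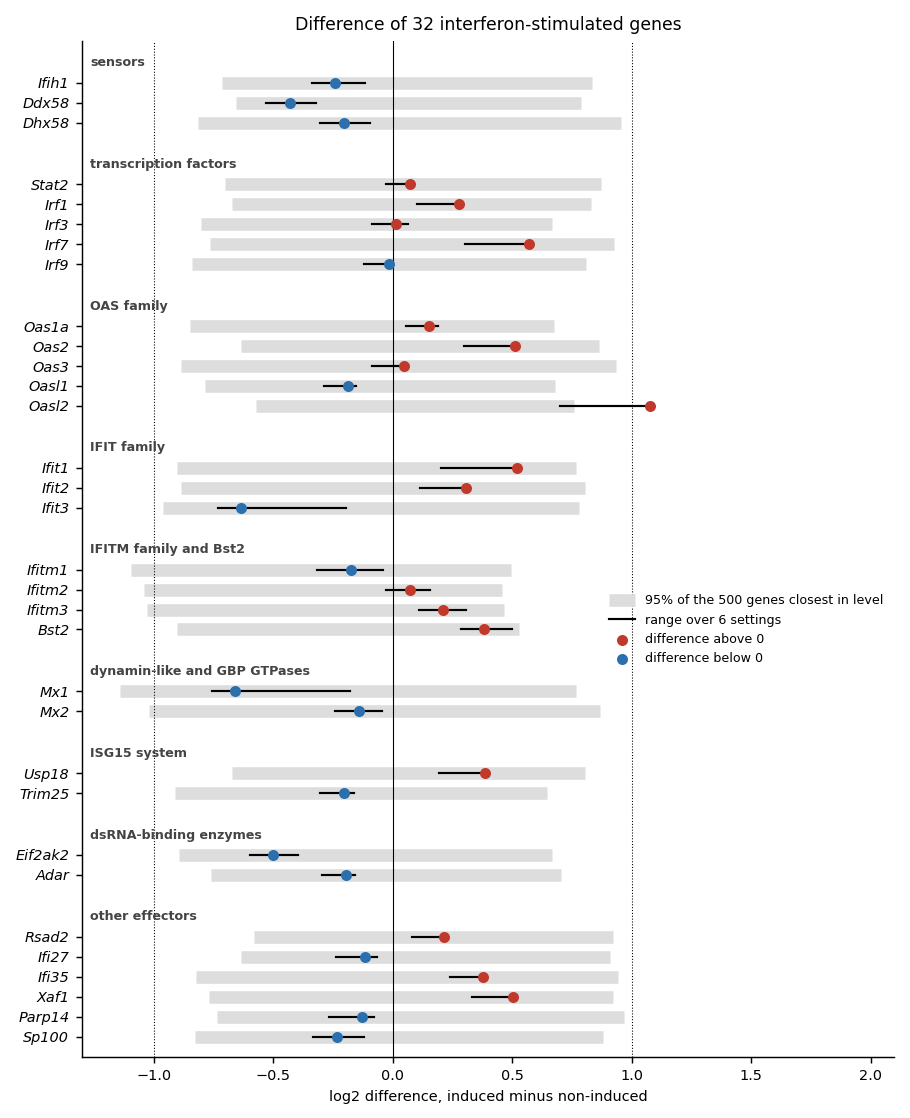
Log2 difference of each member, induced minus non-induced (points), its range over the 6 settings (black lines) and the range of 95% of the 500 genes closest in mean level (grey bars); dotted lines mark a difference of 1 either way. Oasl2 at 1.08 is the 1 point outside its grey bar, and bars of 95% leave some genes outside by construction.

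IFIT proteins bind viral RNA ends and block translation, and their genes lie together on chromosome 19. All 3 members were dim in both arrays. Ifit1 was at 4.62 in induced and 4.10 in non-induced cells (0.52), and Ifit2 at 4.43 induced and 4.12 non-induced (0.31). Ifit3 had the opposite sign, at 3.52 induced and 4.15 non-induced (-0.63), as did its near copy Ifit3b, at 3.28 induced and 4.26 non-induced (-0.98), and probe sets of such copies may read both genes. With the constant added to the linear signals Ifit1 was at 0.20 and Ifit3 at -0.20, a narrower gap. Their promoters both hold 2 ISRE cores, with the same letters, as shown above.

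IFITM proteins sit in membranes and block fusion of viruses, and in mice the early germ cell gene fragilis is Ifitm3. Ifitm3 was at 10.63 in induced and 10.42 in non-induced cells (0.21), above 0 in each setting. Ifitm2 was at 10.29 induced and 10.22 non-induced (0.07, and -0.03 after centring), and its 2 other probe sets differed by 0.31 and -0.02. Ifitm1 was at 9.16 induced and 9.33 non-induced (-0.18), and its other probe set at 8.15 induced and 8.61 non-induced (-0.45). These genes were well above the floor with and without induction, and their probe sets may cross-read. Bst2, which encodes tetherin, a membrane protein that holds budding virus on the cell, was at 8.15 in induced and 7.77 in non-induced cells (0.38). The 95% range of the 500 genes nearest to Bst2 in mean level was -0.90 to 0.53, and 95.2% of them had a lower difference. In the same family Ifitm5, a bone gene, was at 6.22 induced and 5.56 non-induced (0.66), below the floor in both.

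The remaining antiviral effectors were dim and split in sign. Mx1, which encodes the dynamin-like GTPase that traps nucleocapsids, was at 3.25 in induced and 3.91 in non-induced cells (-0.66), the lowest difference of the 32. With the constant added it was at -0.18. Mx2 was at 3.89 induced and 4.03 non-induced (-0.14). Rsad2, which encodes viperin, an enzyme that makes a chain-terminating nucleotide, was at 6.05 induced and 5.83 non-induced (0.22). Xaf1, which encodes an antagonist of the apoptosis inhibitor XIAP, was at 6.21 induced and 5.70 non-induced (0.51). Ifi35 was at 6.16 induced and 5.78 non-induced (0.38). On the lower side, Sp100, which encodes a nuclear body protein, was at 4.98 induced and 5.22 non-induced (-0.23), Parp14, which encodes a mono-ADP-ribosyltransferase, at 5.65 induced and 5.78 non-induced (-0.13), and Ifi27 at 5.27 induced and 5.39 non-induced (-0.12). None of these 8 reached the floor in either array.

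Of the ISG15 system, which tags proteins with a ubiquitin-like modifier, 2 members were measured. Usp18, which encodes the protease that removes ISG15 and dampens receptor signalling, was at 5.18 in induced and 4.79 in non-induced cells (0.39), below the floor in both. Trim25, which encodes a ubiquitin ligase that activates RIG-I, was at 7.19 induced and 7.39 non-induced (-0.21).

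**Figure D3:**
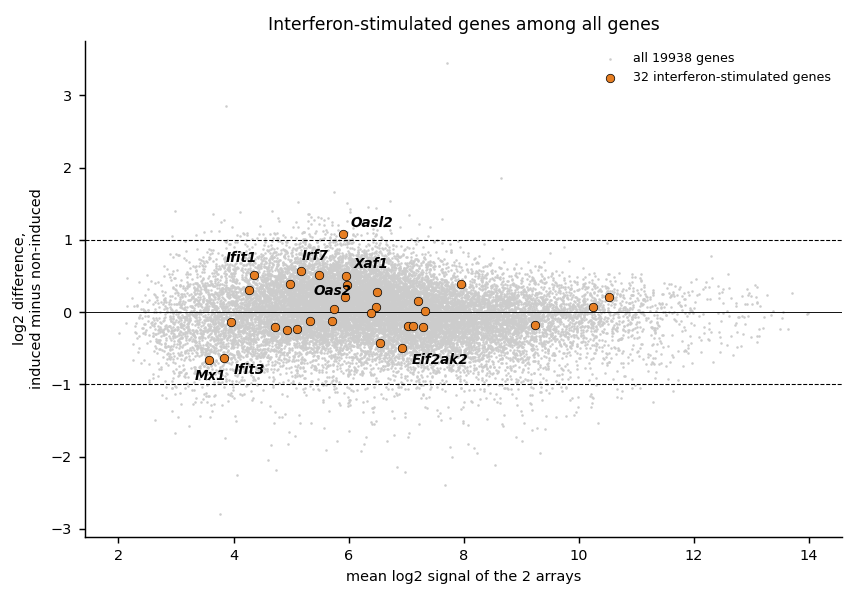
Log2 difference, induced minus non-induced, against mean log2 signal for all 19938 genes (grey) and the 32 members (orange); dashed lines mark a difference of 1 either way. Oasl2 is the 1 member past a dashed line, and members of low mean signal such as Mx1 (-0.66) and Ifit3 (-0.63) lie lowest.

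Other genes of the pathway were examined from lists. Of 15 interferon and receptor genes 13 were measured, with 8 above 0, 3 higher and 2 lower at log2 0.58 without a floor, and 0 past log2 1 with the floor in either direction (median 0.24). Over all genes 51.4% were above 0, 6.82% were higher and 7.4% lower at log2 0.58. Ifna2, of the interferon alpha family, was at 6.0 in induced and 4.68 in non-induced cells (1.32, and 0.73 with the constant), below the floor in both, and belongs to a family of close copies. Ifnl2, an interferon lambda gene, was at 7.5 induced and 6.68 non-induced (0.82). The receptor genes Ifnlr1, at 5.32 induced and 6.13 non-induced (-0.82, and -0.51 with the constant), and Ifngr1, at 5.17 induced and 5.90 non-induced (-0.73, and -0.43 with the constant), lay on the other side. Ifnb1 was the remaining gene higher at log2 0.58, and it was below the floor in both arrays. Its level was 4.84 in induced and 4.21 in non-induced cells (0.62, and 0.26 with the constant). Ifnb1 and the genes of the type I receptor were picked for their role after their values were seen. Ifnar1 was at 7.36 in induced and 7.53 in non-induced cells (-0.17), and Ifnar2 at 6.27 induced and 6.03 non-induced (0.24).

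Of 27 listed signalling genes 24 were measured, with 14 above 0 and a median of 0.12. At log2 0.58 without a floor 2 of the 24 were higher and 0 lower, against 6.82% and 7.4% of all genes, and 0 were past log2 1 with the floor. Ticam1, which encodes TRIF, the adaptor of the receptor TLR3, was at 6.13 in induced and 4.80 in non-induced cells (1.32, and 0.77 with the constant), below the floor in both. Jak2, a kinase of the interferon gamma receptor and of other cytokine receptors, was at 6.59 induced and 5.72 non-induced (0.86). Socs1, which encodes an inhibitor of JAK kinases and is itself induced by interferon, was at 7.63 induced and 7.19 non-induced (0.44). Tbk1, which encodes the kinase that activates IRF3, was at 6.87 induced and 7.28 non-induced (-0.41).

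Further interferon-induced genes also lay on both sides of 0. Of 57 listed 47 were measured, 25 above 0 and 22 below, with a median of 0.04. At log2 0.58 without a floor 5 of the 47 were higher and 6 lower, against 6.82% and 7.4% of all genes, and at log2 1 with the floor 0 were past the size in either direction. With the deposited values the 4 widest differences were downward and below the floor, but after lowess or quantile normalization Sp140 (0.99 and 1.01) was among the 4 widest, and with the constant Ifi30 (0.60) was. Trim12a, a rodent gene related to Trim5, was at 4.02 in induced and 5.41 in non-induced cells (-1.38, and -0.62 with the constant). Ifi205, a gene of the family of DNA-binding HIN proteins, was at 2.46 induced and 3.49 non-induced (-1.03, and -0.20 with the constant). Ifit3b, at the values above, was at -0.29 with the constant. Dtx3l, which encodes a ubiquitin ligase, was at 5.20 induced and 6.10 non-induced (-0.90, and -0.55 with the constant).

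**Figure D4:**
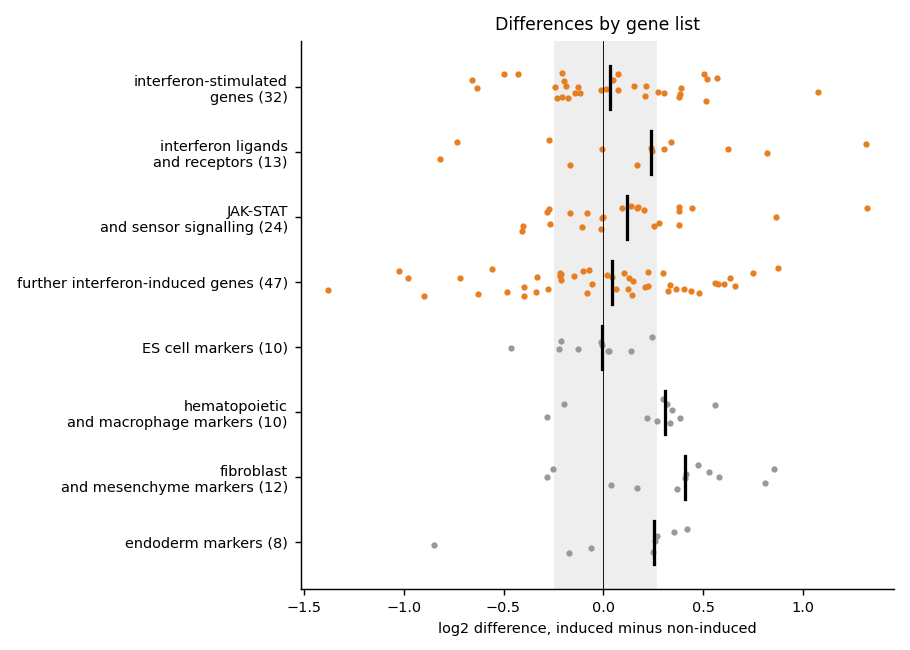
Points are single genes by their log2 difference, induced minus non-induced, and black bars are list medians, for the interferon lists (orange) and cell type markers (grey); the shaded band holds the middle 50% of all genes (-0.24 to 0.26). The members centre near 0 (0.03), and the fibroblast markers have the highest median (0.41).

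The members were last divided by their promoters. Of 25 measured members with a promoter 12 held an ISRE core, and 8 of these 12 were above 0, with a median of 0.07 and a range of -0.63 for Ifit3 to 0.52 for Ifit1. The other 13 without the core had 7 above 0, a median of 0.01 and a range of -0.23 to 1.08. With a gamma-activated site 6 of 8 were above 0 (median 0.24), and without it 9 of 17 (median 0.01). Over all array genes 51.5% of those with the site were above 0 (median 0.02), against 51.1% of those without it (median 0.01). For the ISRE core the median over all array genes with a promoter was 0.01 both for 607 with the ISRE core and for 15007 without it. Of those with the core 50.6% were above 0, against 51.1% of those without it. The 5 members that share the letters GAAACTGAAA differed by 0.52 (Ifit1), 0.38 (Bst2), 0.15 (Oas1a), 0.07 (Stat2) and -0.63 (Ifit3). Only Ifit3 lay below 0. It was below the floor in both arrays (3.52 induced, 4.15 non-induced) and at -0.20 with the constant, and its probe set may also read Ifit3b.

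**Figure D5:**
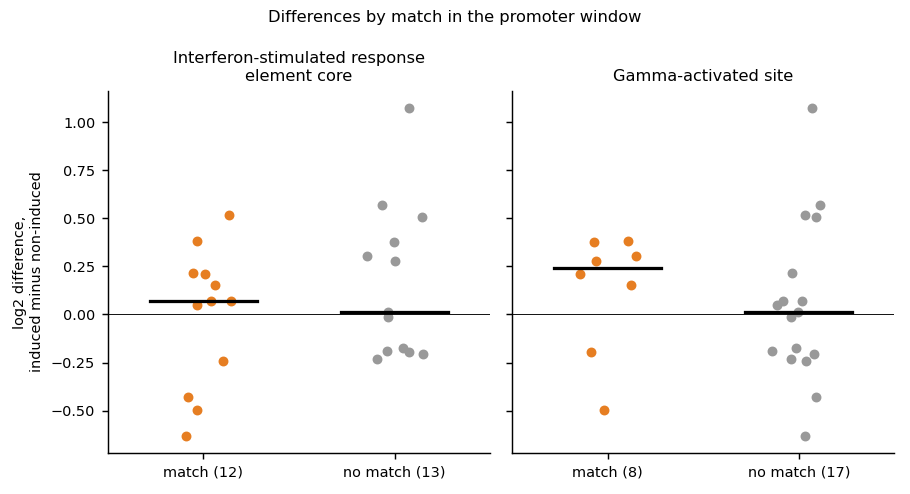
Log2 difference, induced minus non-induced, of 25 members by whether the promoter window held an ISRE core (left) or a gamma-activated site (right); points are genes and black bars medians. Members with an ISRE core run from -0.63 to 0.52, and the highest point, Oasl2 at 1.08, has no match for either.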

How the data were processed

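From 1 induced and 1 non-induced sample, the authors labelled 300 ng of total RNA and measured it on Affymetrix Mouse Gene 1.0 ST arrays. Each probe set has 1 deposited log2 value per array, made by the authors with background correction, quantile normalization and RMA; the log2 unit was inferred from their range, 1.36 to 14.5. For the arrays, software versions and the genome build were not given in the sources used here. RMA is known to compress differences of dim genes. The number of arrays limits the precision.

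Of 35557 probe sets 21789 had 1 platform symbol, and 21698 of these were matched by gene identifier to RefSeq (GRCm38.p6), which also gave the promoters. The result was 19938 genes. For the 999 with more than 1 probe set, the brightest on average was kept. Settings beside the deposited scaling were centring on the median, lowess on mean level (fraction 0.3), a second quantile normalization, an offset of 32 and the mean of probe sets. Genes named were all members, Ctcfl and up to 4 genes of each list with the widest difference; other names were chosen after their values were seen, for their family or role. Members and lists were chosen with earlier results of these data known. The scalings and the count at log2 1 with the floor were tested on simulated arrays, with wide shifts in genes well above the floor. The noise of the simulated arrays gave a narrower spread of differences than these arrays have, so how often such a spread alone passes log2 1 was not tested. Smaller shifts, shifts of dim genes, averaging of probe sets and the promoter search were not simulated. Python 3.11.15, numpy 2.4.6, pandas 2.3.3, statsmodels 0.14.6 and matplotlib 3.10.9 were used.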

Additional observations from a re-analysis of the deposited data

How the results depend on the processing

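No paired analysis was possible because each group had 1 array. The arrays differed by 0.10 in their median over genes (6.40 induced, 6.30 non-induced), which is the shift that centring removes. The count of members higher by log2 1 or more with the floor was 1 with the deposited values and 0 after centring, lowess, quantile normalization or the offset, or with the floor at the 75th percentile of gene values (7.64). The count of members lower by log2 0.58 or more was 2 with the deposited values (Ifit3 and Mx1), 3 after centring, which added Eif2ak2 (-0.60), and 0 after lowess, quantile normalization or the offset. The median of the members, 0.031, was -0.067 after centring (-0.085 for all genes), -0.051 after lowess (0.0025 for all genes) and -0.023 after quantile normalization (0.018 for all genes). The cause was not tested. Leaving out Oasl2, a choice made after the data were seen, gave 0.01. Across the 6 settings 13 members were above 0 in each and 15 below 0 in each, while Stat2, Irf3, Oas3 and Ifitm2 changed sign. The share of all genes that kept their sign was not counted. Of 160 member differences under the alternatives 5 moved by more than 0.25, all with the offset (Irf7, Oasl2, Ifit1, Ifit3 and Mx1). Many of the 160 could not move so far. Centring shifts every member by 0.10, and averaging could change only the 3 members with several probe sets. How far signal over background limits the dim members was not tested.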
